A study of Mus musculus with 21 samples.

Results

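Integrins are the adhesion receptors of T cells, and 10 of their chains form the set described here. They were chosen by name from the alpha and beta chains of the mouse, with *Itgae*, which encodes the alpha E chain known as CD103, and *Itga7* singled out because of their values in AML-conditioned against fresh medium. Each chain was read from the array row that carries its symbol, and 9 of the 10 chains were measured among 19505 genes in all. *Itga1* is not analysed here. Because the set was chosen with earlier results of these data known, the differences of its chains between AML-conditioned and fresh medium are given as a description with no test. The same holds for *Itgae* and *Itga7* between AML-conditioned and DC-conditioned medium, a comparison that shares the AML arrays. It also holds for *Itgae* and *Itga7* between DC-conditioned and fresh medium, a comparison that shares the fresh arrays.

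The study cultured splenic T cells of wildtype genotype, activated with CD3/CD28 Dynabeads, which are beads that engage the T cell receptor complex and the costimulatory receptor CD28. The first group grew in sterile-filtered supernatant of WEHI 3B cells (AML-conditioned medium), a mouse myelomonocytic leukaemia line used as a model of acute myeloid leukaemia. The second group grew in supernatant of bone marrow derived dendritic cells (DC-conditioned medium), and the third in fresh complete RPMI medium with 2-ME. After 48 h in each of the 3 media the CD8+ T cells were isolated again with magnetic beads, so wildtype genotype, activation and time were shared by all groups. Each medium had 7 biological replicates, each on 1 Affymetrix array, and the labels do not say what a replicate number stands for or whether replicates came from separate mice. WEHI 3B is 1 cell line, and none of the values here comes from a leukaemic mouse.

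All values are log2 RMA values, an array signal that was corrected for background, normalized between arrays and summarised over the probes of a gene. A difference of 1 on this scale is a doubling of the signal, and levels of different chains are not set against each other, because each has its own probes. The median over all 22203 rows of an array, those without a gene symbol included, lay between 5.23 and 5.40 on the 21 arrays. The 5 CD8 T cell markers were at a mean of 11.30 to 11.50 per AML array, 11.32 to 11.55 per DC array and 11.30 to 11.50 per fresh array, and 0 of them passed the test in any comparison. One label field names a reticular stromal cell in place of the T cell; 5 of 6 markers of that cell were measured, at a mean of 4.04 to 4.31 per AML array, 3.94 to 4.09 per DC array and 3.96 to 4.21 per fresh array. In a principal component analysis of the residuals, the second component separated AML replicates 4 and 5, and the first mostly separated replicates 1 to 3 and replicates 4 to 7. Neither split is a batch named in the labels.

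An integrin is a pair of 1 alpha and 1 beta chain, and a chain reaches the cell surface only with a partner. In lymphocytes the alpha E chain pairs with beta 7 and binds E-cadherin on epithelium, and CD103 is a widely used mark of T cells that stay in epithelial tissues. Alpha 4 also pairs with beta 7, as the gut-homing receptor for MAdCAM-1, and with beta 1 as the receptor for VCAM-1 and fibronectin on inflamed endothelium. Alpha L with beta 2 forms LFA-1, which binds ICAM-1 at the contact between a T cell and its target. Alpha 7 with beta 1 is a laminin receptor best known from skeletal muscle. Alpha 1 and alpha 2 with beta 1 bind collagens, and alpha V pairs with several beta chains to bind vitronectin, fibronectin and latent TGF-beta.

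The promoters of a pair whose transcripts were both lower in AML-conditioned than in DC-conditioned medium, *Itga4* and *Itgb1*, are shown with that of *Itgb7*, the beta chain shared by alpha E and alpha 4. RefSeq promoter sequences on GRCm38.p6, from 250 bases before to 50 bases after the start of the gene, were found for 6 of the 10 chains, and those of *Itgae*, *Itga7*, *Itgal* and *Itgb2* are not shown. Each sequence is written 5′ to 3′ on the strand of its gene, and capitals mark matches on either strand to the letters searched. These were TGTGGT (the core bound by RUNX factors), GGGCGG (the GC box), CAGAC (a SMAD half-site) and TATAAA (the TATA box). *Itga4* lies at chr2:79255176-79255475 on the plus strand, *Itgb1* at chr8:128685404-128685703 on the plus strand and *Itgb7* at chr15:102231886-102232185 on the minus strand.
Itga4: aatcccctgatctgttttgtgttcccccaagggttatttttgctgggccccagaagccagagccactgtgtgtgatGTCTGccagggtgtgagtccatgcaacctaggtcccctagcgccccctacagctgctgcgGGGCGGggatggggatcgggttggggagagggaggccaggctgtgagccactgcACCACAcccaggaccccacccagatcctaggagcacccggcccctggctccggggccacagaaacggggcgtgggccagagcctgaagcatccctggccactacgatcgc
Itgb1: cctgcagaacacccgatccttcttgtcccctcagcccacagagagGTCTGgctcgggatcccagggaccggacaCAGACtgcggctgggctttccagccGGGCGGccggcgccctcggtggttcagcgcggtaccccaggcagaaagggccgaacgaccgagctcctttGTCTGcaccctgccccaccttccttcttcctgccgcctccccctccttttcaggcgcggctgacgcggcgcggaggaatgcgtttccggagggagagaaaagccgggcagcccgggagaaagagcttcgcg
Itgb7: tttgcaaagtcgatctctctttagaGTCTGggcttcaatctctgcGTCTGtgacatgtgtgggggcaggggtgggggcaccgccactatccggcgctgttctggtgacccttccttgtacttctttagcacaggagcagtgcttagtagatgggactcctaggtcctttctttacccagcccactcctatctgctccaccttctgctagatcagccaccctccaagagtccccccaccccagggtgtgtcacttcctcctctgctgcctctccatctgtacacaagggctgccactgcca
Of the 3 promoters, the *Itga4* one held the RUNX core, 1 match on the reverse strand 60 bases before the start, and this motif was present in 16.8% of 32851 promoters of 300 bases. The GC box was in the *Itga4* and *Itgb1* windows, 1 match each, at 114 and 151 bases before the start, and in 35.7% of all promoters. The SMAD half-site was matched 1 time in *Itga4*, 3 times in *Itgb1* and 2 times in *Itgb7*, and was in 49.6% of all promoters. The TATA box, in 13.6% of all promoters, was in 0 of these 3 windows. No pair of these matches overlapped, and a match describes the letters only.

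Between AML-conditioned and fresh medium, *Itgae* lay higher and *Itga7* and *Itgb1* lower by the threshold used for all genes, an adjusted p of 0.05 in limma. That is 3 of 9 chains measured (1 higher and 2 lower), beside 2.77% of all genes (1.3% higher and 1.48% lower). The set was chosen with earlier results known, and *Itgae* and *Itga7* were singled out in this comparison, so nothing is read from the count. Between AML-conditioned and DC-conditioned medium, 2 of the 7 measured chains other than *Itgae* and *Itga7* fell, *Itga4* and *Itgb1*, the chains of the VCAM-1 receptor. The AML arrays are shared with the comparison before, where *Itgb1* also lay lower. The comparisons are thus not independent, and nothing is read from this count. *Itgb7*, *Itga2*, *Itgal*, *Itgav* and *Itgb2* did not pass. Of all genes 2.39% passed in this comparison (1.13% higher and 1.26% lower). Between DC-conditioned and fresh medium 0 of 9 chains and 0% of all genes passed with limma. There 2 chains, *Itgae* and *Itga4*, had an unadjusted p under 0.05, beside 6.41% of all genes. *Itgae* had been singled out in a comparison with the same fresh arrays, so nothing is read from this count either. The median difference over the 9 chains was -0.21 for AML-conditioned against fresh medium, -0.17 for AML-conditioned against DC-conditioned and 0.08 for DC-conditioned against fresh, where the median over all genes was -0.01, 0.01 and -0.01.

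**Figure D1:**
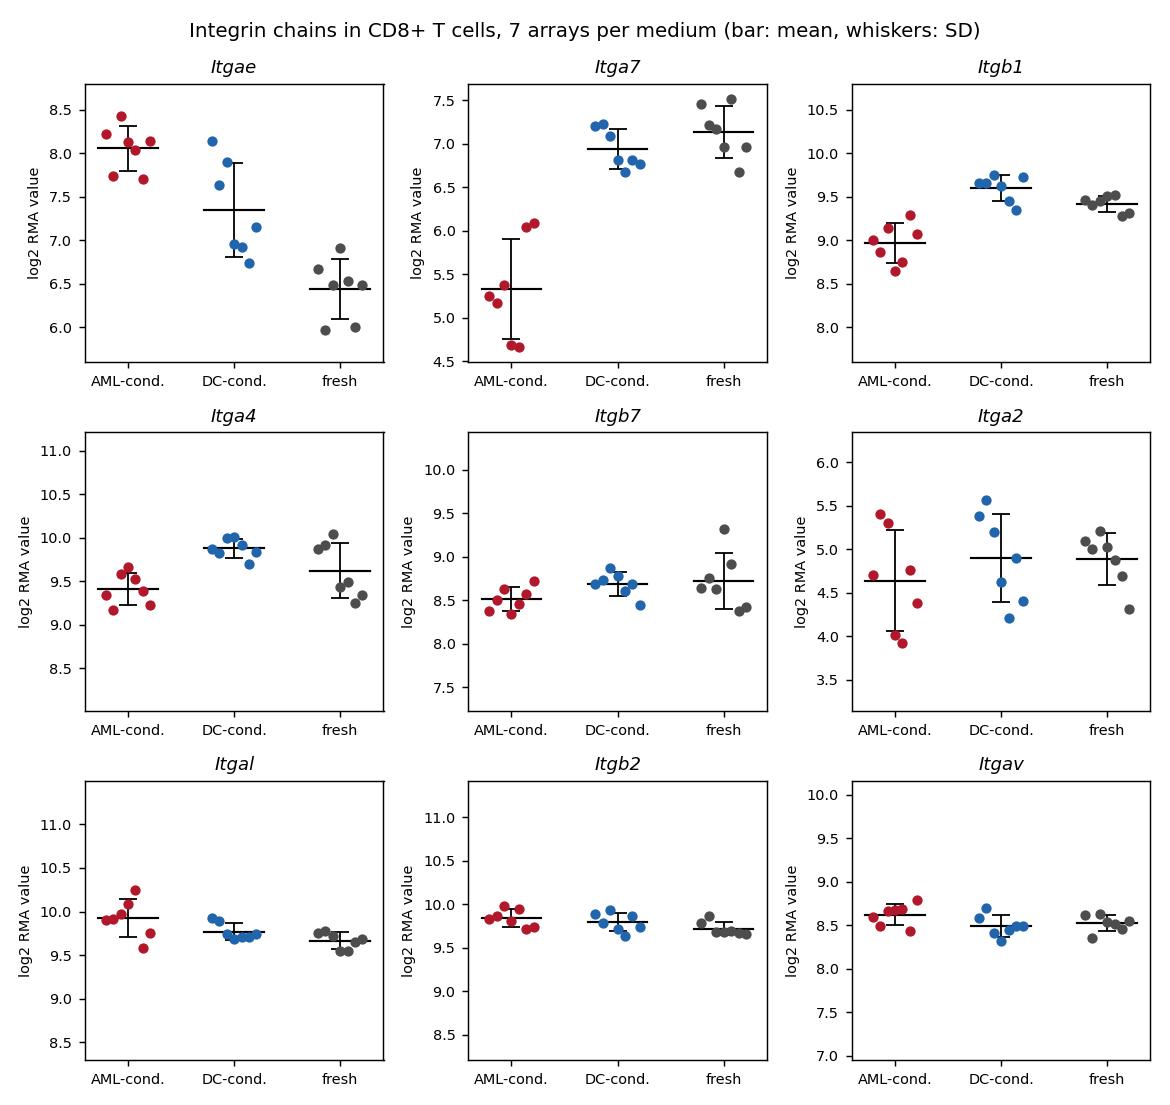
Log2 RMA values (y axis, the same span of units in each panel) of the 9 measured chains in AML-conditioned, DC-conditioned and fresh medium, with 1 point per array in the order of the replicate numbers, the mean as a bar and the SD as whiskers. *Itgae* in AML-conditioned medium lay between 7.70 and 8.43, above all fresh arrays, and *Itga7* between 4.67 and 6.09, below all other arrays.

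*Itgae* had log2 values of 8.23, 7.73, 8.43, 8.12, 8.04, 7.70 and 8.14 in AML replicates 1 to 7. In DC replicates 1 to 7 it had 8.14, 7.64, 7.90, 6.95, 6.93, 6.75 and 7.15. In fresh replicates 1 to 7 it had 6.68, 5.97, 6.49, 6.91, 6.53, 6.01 and 6.49. All 7 AML arrays and 6 of 7 DC arrays lay above every fresh array, and 3 of 7 AML arrays lay above every DC array. The means were 8.06 ± 0.26 in AML-conditioned, 7.35 ± 0.54 in DC-conditioned and 6.44 ± 0.34 in fresh medium (SD, n = 7 each). AML-conditioned minus fresh medium came to 1.62 (SE 0.19), a 3.07-fold higher signal. AML-conditioned minus DC-conditioned medium came to 0.71 (SE 0.19), a 1.63-fold higher signal. DC-conditioned minus fresh medium came to 0.91 (SE 0.19) and did not pass the threshold used for all genes. Its fresh arrays are those of the comparison that singled out *Itgae*. The value is thus a description, and a rise in DC-conditioned medium was not established. In RNA from many cells, more cells that carry *Itgae* and more *Itgae* RNA per cell cannot be told apart.

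The DC arrays of *Itgae* fell into the sets of replicate numbers named above. In replicates 1 to 3 the means were 8.13 in AML-conditioned, 7.89 in DC-conditioned and 6.38 in fresh medium. In replicates 4 to 7 they were 8.0 in AML-conditioned, 6.94 in DC-conditioned and 6.49 in fresh medium. The DC arrays of replicates 1 to 3 thus lay close to the AML arrays and those of replicates 4 to 7 nearer the fresh arrays. *Itgae* in DC-conditioned minus fresh medium was 1.52 within replicates 1 to 3 and 0.46 within replicates 4 to 7, and passed the threshold in neither. *Itgae* in AML-conditioned minus DC-conditioned medium was 0.24 within replicates 1 to 3, 1.06 within replicates 4 to 7 and 1.11 with DC replicates 1 to 3 left out, an alternative chosen after seeing the data. AML-conditioned minus fresh medium varied little by set, at 1.75 within replicates 1 to 3 and 1.51 within replicates 4 to 7. The difference between the sets of replicates was not tested.

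**Figure D2:**
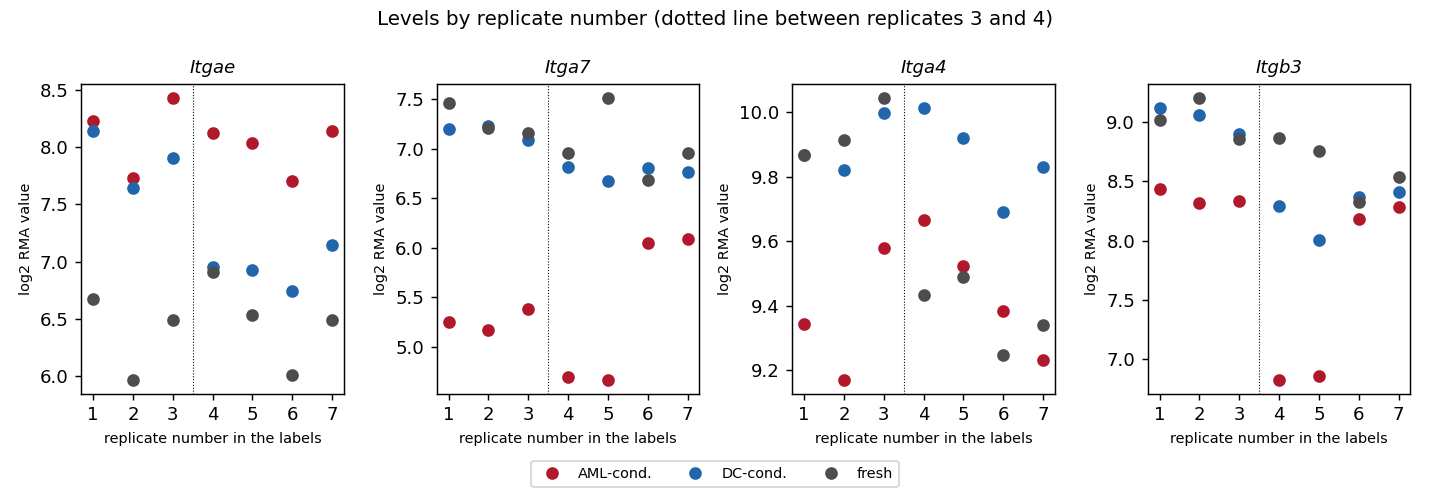
Log2 RMA values (y axes, with a scale of their own in each panel) of *Itgae*, *Itga7*, *Itga4* and *Itgb3* by replicate number (x axis), 1 point per array in AML-conditioned, DC-conditioned and fresh medium. *Itgae* in DC-conditioned medium averaged 7.89 in replicates 1 to 3 and 6.94 in replicates 4 to 7, and *Itgb3* was at 6.83 and 6.86 in AML replicates 4 and 5; for *Itga4* the points of DC and fresh replicate 1 coincide at 9.87.

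*Itgb7*, which encodes the beta partner of CD103 and of alpha 4, did not follow *Itgae*. It had a lowest, median and highest value of 8.34, 8.50 and 8.72 in AML-conditioned medium, 8.45, 8.68 and 8.87 in DC-conditioned medium, and 8.37, 8.64 and 9.32 in fresh medium. The ranges overlapped in all comparisons, and fresh replicate 4 was the highest of the 21 arrays. AML-conditioned minus fresh medium came to -0.21 (SE 0.11). The difference of *Itgb7* was -0.17 (SE 0.11, 95% interval -0.40 to 0.05, limma adjusted p = 0.516) for AML-conditioned minus DC-conditioned medium and -0.03 (SE 0.11, 95% interval -0.26 to 0.19, adjusted p = 0.978) for DC-conditioned minus fresh medium. The CD103 pair thus had a higher alpha chain and a beta chain that was not measurably higher in AML-conditioned medium. Around the means of the media, *Itgae* and *Itgb7* had a correlation of 0.36 over the 21 arrays.

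*Itga7*, the laminin receptor chain, had log2 values of 5.25, 5.17, 5.38, 4.69, 4.67, 6.05 and 6.09 in AML replicates 1 to 7. In DC replicates 1 to 7 it had 7.20, 7.23, 7.08, 6.82, 6.67, 6.81 and 6.76. In fresh replicates 1 to 7 it had 7.46, 7.21, 7.17, 6.96, 7.52, 6.68 and 6.96. Each of the 7 AML arrays lay below each of the 14 other arrays, while the DC and fresh arrays overlapped. AML replicates 4 and 5 were the lowest and AML replicates 6 and 7 the highest of their group. The means were 5.33 ± 0.57 in AML-conditioned, 6.94 ± 0.23 in DC-conditioned and 7.14 ± 0.30 in fresh medium (SD, n = 7 each). AML-conditioned minus fresh medium came to -1.81 (SE 0.19), a 3.50-fold lower signal, and AML-conditioned minus DC-conditioned medium to -1.61 (SE 0.19), a 3.06-fold lower signal. *Itga7* in DC-conditioned minus fresh medium was -0.20 (SE 0.19) and did not pass, and this too is a description because the fresh arrays are shared. Within replicates 1 to 3 *Itga7* in AML-conditioned minus fresh medium was -2.01, within replicates 4 to 7 it was -1.66, and without AML replicates 4 and 5 it was -1.55.

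Array ranges that did not overlap between AML-conditioned and fresh medium were found for 2 of the 9 chains, *Itgae* above and *Itga7* below, beside 0.795% of all genes. Between AML-conditioned and DC-conditioned medium the ranges of 3 chains did not overlap, *Itga7*, *Itga4* and *Itgb1*, all lower, beside 0.815% of all genes. *Itgae* and *Itga7* had been singled out and both comparisons share the AML arrays, so nothing is read from either count. Between DC-conditioned and fresh medium 0 of 9 chains and 0.113% of all genes had ranges that did not overlap.

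*Itgb1*, the beta chain that pairs with alpha 1, alpha 2, alpha 4, alpha 7 and alpha V, had log2 values of 9.0, 8.87, 9.14, 8.65, 8.75, 9.29 and 9.08 in AML replicates 1 to 7. In DC replicates 1 to 7 it had 9.66, 9.66, 9.75, 9.63, 9.45, 9.34 and 9.72. In fresh replicates 1 to 7 it had 9.47, 9.41, 9.45, 9.51, 9.52, 9.28 and 9.31. All 7 AML arrays lay below every DC array, while AML replicate 6 reached into the fresh range. The means were 8.97 ± 0.23 in AML-conditioned, 9.60 ± 0.15 in DC-conditioned and 9.42 ± 0.09 in fresh medium (SD, n = 7 each). *Itgb1* fell by 0.63 on the log2 scale (SE 0.09, limma adjusted p = 0.000416), a 1.55-fold lower signal, in AML-conditioned against DC-conditioned medium. This call was lost in 1 of 34 alternatives, within replicates 4 to 7 alone, where the difference was -0.59 (adjusted p = 0.077). AML-conditioned minus fresh medium came to -0.45 (SE 0.09), and to -0.34 without AML replicates 4 and 5, where it did not pass the threshold used for all genes. *Itgb1* in DC-conditioned minus fresh medium was 0.18 (SE 0.09, 95% interval -0.0018 to 0.37, adjusted p = 0.782).

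*Itga4*, the alpha chain of the VCAM-1 and MAdCAM-1 receptors, had log2 values of 9.34, 9.17, 9.58, 9.67, 9.52, 9.38 and 9.23 in AML replicates 1 to 7. In DC replicates 1 to 7 it had 9.87, 9.82, 9.996, 10.01, 9.92, 9.69 and 9.83. In fresh replicates 1 to 7 it had 9.87, 9.91, 10.04, 9.43, 9.49, 9.25 and 9.34. Each AML array lay below each DC array, and the fresh arrays spanned both ranges, high in replicates 1 to 3 and low in replicates 4 to 7. *Itga4* averaged 9.41 ± 0.18 in AML-conditioned, 9.88 ± 0.11 in DC-conditioned and 9.62 ± 0.32 in fresh medium (SD, n = 7 each). *Itga4* fell by 0.46 on the log2 scale (SE 0.11, limma adjusted p = 0.0239), a 1.38-fold lower signal, in AML-conditioned against DC-conditioned medium. This call was lost in 5 of 34 alternatives. They were those without AML replicate 2, DC replicate 3 or DC replicate 4 (*Itga4* differences of -0.42, -0.44 and -0.44, adjusted p of 0.0503 to 0.0553), within replicates 4 to 7 (-0.41, adjusted p = 0.1) and without DC replicates 1 to 3 (-0.45, adjusted p = 0.0768).

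Against fresh medium the value for *Itga4* depended on the replicates. AML-conditioned minus fresh medium was -0.21 (SE 0.11) over all arrays, -0.58 within replicates 1 to 3 and 0.07 within replicates 4 to 7. DC-conditioned minus fresh medium was 0.26 (SE 0.11, limma adjusted p = 0.752, unadjusted p = 0.0289) for *Itga4*, -0.05 within replicates 1 to 3 (adjusted p = 0.914) and 0.49 within replicates 4 to 7 (adjusted p = 0.49). The deviations of *Itga4* from the means of the media had a correlation of 0.07 with those of *Itgb1* and of 0.00 with those of *Itgb7*, its 2 beta partners, over the 21 arrays. For *Itga7* and *Itgb1* this correlation was 0.77. These correlations describe arrays that share a medium, a replicate number and one normalization.

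**Figure D3:**
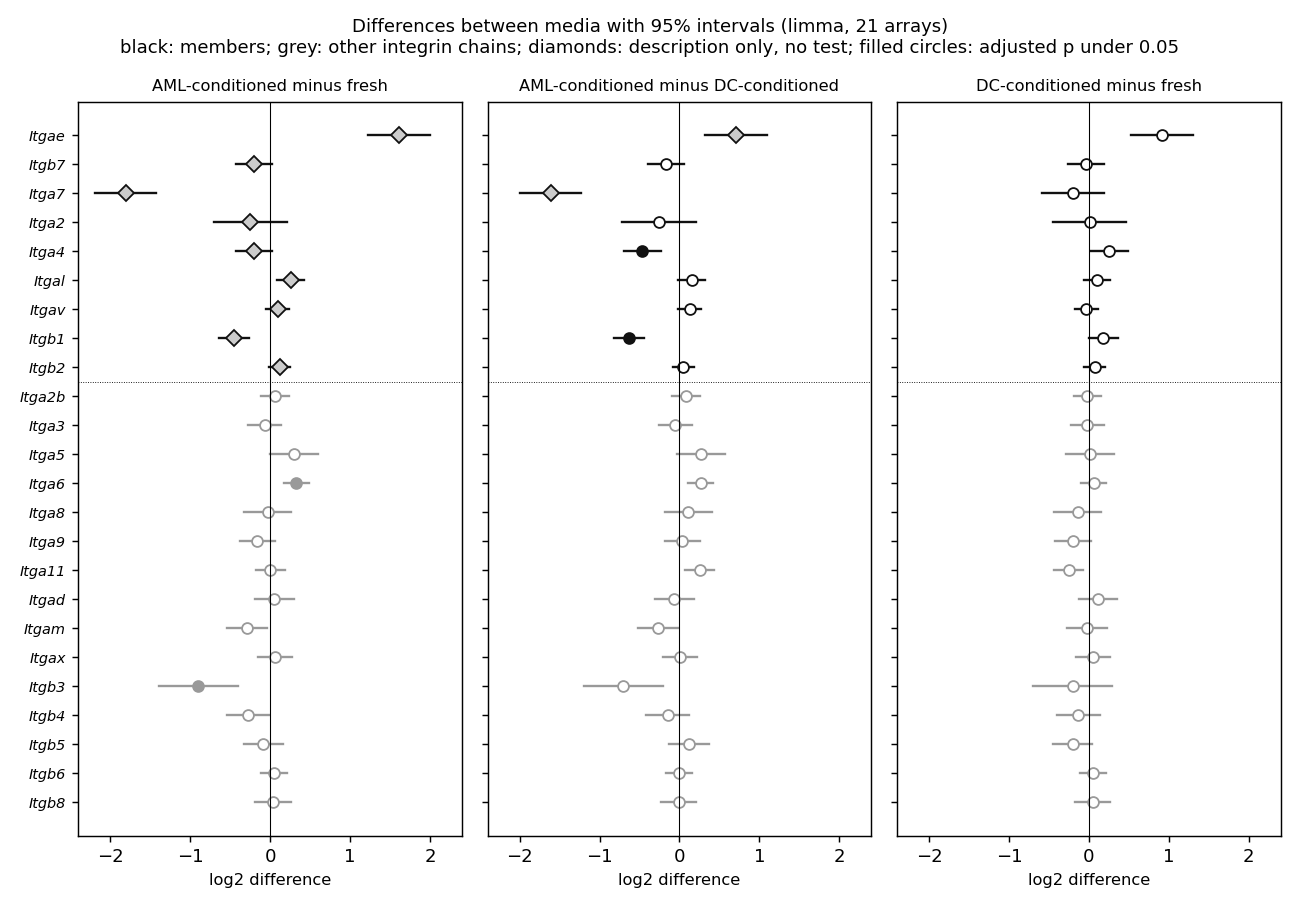
Log2 differences (x axis) with 95% intervals from limma over 21 arrays for the 9 measured chains (black) and 15 other integrin chains (grey), in AML-conditioned minus fresh, AML-conditioned minus DC-conditioned and DC-conditioned minus fresh medium. Filled circles passed an adjusted p of 0.05, open circles did not and diamonds carry no test. The open circles of *Itgae* and *Itga7* in DC-conditioned minus fresh medium are also a description only. *Itgb1* at -0.63 and *Itga4* at -0.46 passed in AML-conditioned minus DC-conditioned medium.

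The chains of LFA-1 differed by at most 0.26 on the log2 scale between the media. *Itgal*, its alpha chain, had a lowest, median and highest value of 9.58, 9.91 and 10.25 in AML-conditioned, 9.68, 9.74 and 9.92 in DC-conditioned and 9.54, 9.69 and 9.77 in fresh medium. AML replicate 5 was the highest and AML replicate 6 the lowest of the AML arrays, and 5 of 7 AML arrays lay above every fresh array. *Itgal* in AML-conditioned minus fresh medium came to 0.26 (SE 0.08). It came to 0.31 without AML replicate 6, the only 1 of 34 alternatives in which it passed the threshold used for all genes. *Itgal* in AML-conditioned minus DC-conditioned medium was 0.15 (SE 0.08, 95% interval -0.01 to 0.32, limma adjusted p = 0.414), and in DC-conditioned minus fresh medium 0.10 (SE 0.08, adjusted p = 0.891). *Itgb2*, the beta chain that all leukocyte integrins of the LFA-1 family share, had a lowest, median and highest value of 9.72, 9.84 and 9.98 in AML-conditioned, 9.64, 9.78 and 9.93 in DC-conditioned and 9.66, 9.68 and 9.86 in fresh medium. The ranges of *Itgb2* overlapped throughout. Its AML-conditioned minus fresh difference was 0.12 (SE 0.06), and AML-conditioned minus DC-conditioned medium gave 0.05 (SE 0.06, 95% interval -0.08 to 0.18, adjusted p = 0.827). Around the means of the media *Itgal* and *Itgb2* had a correlation of 0.59 over the 21 arrays. Among the 19505 genes, the spread of *Itgb2* within media was small (SD 0.09, larger than that of 3.39% of genes), and that of *Itgae* was large (SD 0.40, larger than that of 98.4%).

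*Itgav*, the alpha V chain, had a lowest, median and highest value of 8.43, 8.66 and 8.79 in AML-conditioned, 8.32, 8.49 and 8.70 in DC-conditioned and 8.36, 8.54 and 8.62 in fresh medium. The ranges overlapped. Its AML-conditioned minus fresh difference was 0.10 (SE 0.07), and *Itgav* in AML-conditioned minus DC-conditioned medium was 0.13 (SE 0.07, 95% interval -0.02 to 0.27, limma adjusted p = 0.436). *Itga2*, the collagen receptor chain, had a lowest, median and highest value of 3.92, 4.70 and 5.40 in AML-conditioned, 4.21, 4.89 and 5.56 in DC-conditioned and 4.31, 5.00 and 5.21 in fresh medium. AML replicates 4 and 5 were the lowest of the 21 arrays, and the ranges overlapped. *Itga2* in AML-conditioned minus fresh medium was -0.25 (SE 0.22) and in AML-conditioned minus DC-conditioned medium -0.26 (SE 0.22, 95% interval -0.72 to 0.21, adjusted p = 0.681). The standard error of *Itga2* was the largest of the 9 chains.

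Of 16 other integrin chains, 15 were measured, and *Itga10* is not analysed here. In AML-conditioned against fresh medium 1 rose, 1 fell and 13 did not pass, where 2.77% of all genes passed. The median was 0.00 beside -0.01 over all genes. In the other comparisons 0 of 15 passed, though in AML-conditioned against DC-conditioned medium 1 rose and 1 fell with a block for replicates 1 to 3 against 4 to 7. The chain that rose was *Itga6*, which pairs with beta 1 or beta 4 as a laminin receptor. *Itga6* had 8.25, 8.40, 8.37, 8.58, 8.65, 8.15 and 8.24 in AML replicates 1 to 7, against 8.01, 8.19, 7.95, 8.02, 7.98, 8.09 and 8.10 in fresh replicates 1 to 7, and 7.99 to 8.25 in DC-conditioned medium. Of the 7 AML arrays, 6 lay above every fresh array, with replicates 4 and 5 the highest. The rise of *Itga6* was 0.33 (SE 0.08, limma adjusted p = 0.0186). It was 0.29 (adjusted p = 0.0529) without AML replicate 4, 0.28 (adjusted p = 0.0553) without AML replicate 5 and 0.23 (adjusted p = 0.146) without both. Against DC-conditioned medium *Itga6* differed by 0.27 (SE 0.08, adjusted p = 0.0567), and it passed in 5 of 34 alternatives: without AML replicate 6 (0.31, adjusted p = 0.0184) or 7 (0.29, adjusted p = 0.0399), with the block for replicates 1 to 3 against 4 to 7 (0.27, adjusted p = 0.0412), after a further quantile normalization (0.28, adjusted p = 0.0483) and with genes of low mean level left out (0.27, adjusted p = 0.0445). The laminin receptor chains *Itga7* and *Itga6* thus stood on opposite sides in AML-conditioned medium. Around the means of the media they had a correlation of -0.72 over the 21 arrays. AML replicates 4 and 5 were lowest in *Itga7* and highest in *Itga6* of the AML arrays, and AML replicates 6 and 7 the reverse. The SD of *Itga7* was 0.57 in AML-conditioned, 0.23 in DC-conditioned and 0.30 in fresh medium, so these AML arrays weigh heavily in the correlation.

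The chain that fell was *Itgb3*, a partner of alpha V and, on platelets, of alpha IIb. It had 8.44, 8.32, 8.33, 6.83, 6.86, 8.18 and 8.28 in AML replicates 1 to 7. In DC replicates 1 to 7 it had 9.12, 9.05, 8.90, 8.29, 8.003, 8.37 and 8.41. In fresh replicates 1 to 7 it had 9.01, 9.20, 8.86, 8.86, 8.75, 8.32 and 8.54. AML replicates 4 and 5 were far below the other arrays, and the ranges overlapped. *Itgb3* fell by 0.90 on the log2 scale (SE 0.24, limma adjusted p = 0.0403) in AML-conditioned against fresh medium. The call was lost in 12 of 34 alternatives. Without AML replicate 4 or 5 the difference of *Itgb3* was -0.73 in both cases (adjusted p = 0.101 and 0.111), without both it was -0.48 (adjusted p = 0.238), and without 1 of fresh replicates 1 to 5 it was -0.83 to -0.91 (adjusted p of 0.0614 to 0.0902). Against DC-conditioned medium *Itgb3* differed by -0.70 (SE 0.24, adjusted p = 0.134). It passed in 3 of 34 alternatives, among them the replicate block. The others were the block for replicates 1 to 3 against 4 to 7 (-0.70, adjusted p = 0.0252) and replicates 1 to 3 alone (-0.66, adjusted p = 0.0101). *Itga2b*, the alpha IIb chain, which was at 6.78 ± 0.11 in AML-conditioned, 6.70 ± 0.07 in DC-conditioned and 6.72 ± 0.23 in fresh medium, did not pass (adjusted p = 0.786 against fresh medium). The 3 measured platelet markers had 0 calls.

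Around the means of the media, *Itgb3* had its highest correlations, among the 9 measured members and *Itga6*, with *Itga2* (0.81), *Itga7* (0.74) and *Itgb1* (0.70) over the 21 arrays, and one of 0.02 with its partner *Itgav*. The beta 6 chain *Itgb6*, which with alpha V activates latent TGF-beta in epithelium, was at 5.80 ± 0.05 in AML-conditioned, 5.80 ± 0.15 in DC-conditioned and 5.75 ± 0.18 in fresh medium and did not pass (adjusted p = 0.844 against fresh medium). *Itga3*, a laminin receptor chain, was at 4.97 ± 0.23 in AML-conditioned, 5.02 ± 0.14 in DC-conditioned and 5.04 ± 0.20 in fresh medium and did not pass (adjusted p = 0.812 against fresh medium).

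Markers of other cells were examined beside *Itgae*, since CD103 is also carried by regulatory T cells and by a class of dendritic cells. Of 5 regulatory T cell markers 3 were measured, and *Foxp3*, which defines these cells, is not analysed here. *Gpr83*, an orphan receptor of regulatory T cells, rose by 1.42 (SE 0.35, limma adjusted p = 0.0293) against fresh and by 1.49 (SE 0.35, adjusted p = 0.0227) against DC-conditioned medium. *Ikzf4*, a transcription factor of the Ikaros family, rose by 0.55 (SE 0.13, adjusted p = 0.0219) against DC-conditioned medium. *Ikzf2* did not pass. The mean of the 3 markers was 6.87 to 8.43 over the AML arrays, 6.69 to 6.90 over the DC arrays and 6.56 to 7.01 over the fresh arrays. The *Gpr83* rise against fresh medium was lost without AML replicate 4 or 5 or without fresh replicate 2 or 3 (adjusted p of 0.0533 to 0.0771), the one against DC-conditioned medium without AML replicate 4 (adjusted p = 0.0649), and the *Ikzf4* rise without AML replicate 4 or 5 (adjusted p of 0.0541 and 0.0659).

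Of 3 CD4 T cell markers, *Cd4* rose by 0.79 (SE 0.18, limma adjusted p = 0.015) in AML-conditioned against fresh medium, to 8.56 ± 0.43 against 7.77 ± 0.31 (SD, n = 7 each). *Zbtb7b* (0.17, adjusted p = 0.304) and *Cd40lg* (0.31, adjusted p = 0.288) did not pass there. Against DC-conditioned medium 0 of the 3 passed. The mean of that list was 6.39 to 6.99 over the AML arrays, 6.17 to 6.75 over the DC arrays and 6.02 to 6.56 over the fresh arrays. Of 7 dendritic cell markers, *H2-Ab1*, an MHC class II chain, fell by 1.33 (SE 0.30, adjusted p = 0.0168) against fresh and by 1.38 (SE 0.30, adjusted p = 0.0138) against DC-conditioned medium, and the other 6 did not pass. *Clec9a*, which marks the dendritic cells that carry CD103, was at 2.84 ± 0.19 in AML-conditioned, 2.87 ± 0.12 in DC-conditioned and 2.80 ± 0.16 in fresh medium. It was picked from the list outside the rule for named genes. The dendritic cell list had a mean of 4.15 to 4.60 over the AML arrays, 4.36 to 4.69 over the DC arrays and 4.33 to 4.61 over the fresh arrays. Of the lists of gamma delta T cells, NK cells, B cells, macrophages, neutrophils, mast cells and reticular cells, 0 genes passed in any comparison. Without AML replicates 4 and 5 the difference from fresh medium was 0.81 for *Cd4* (adjusted p = 0.0622) and -0.82 for *H2-Ab1* (adjusted p = 0.0985), neither past the threshold. The part of other cells in the values of *Itgae* was not tested.

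Genes with which CD103 is often reported, those of tissue-resident T cells, gave mixed results. Of 15 such genes 14 were measured. In AML-conditioned against fresh medium 2 rose, 1 fell and 11 did not pass, where 2.77% of all genes passed. The median was 0.28 beside -0.01 over all genes. This list was chosen with earlier results of these data known, so nothing is read from its counts or medians. *Ccr8*, a chemokine receptor of skin-resident T cells, rose by 2.16 (SE 0.33, limma adjusted p = 0.00104) to 7.20 ± 1.02, against 5.04 ± 0.58 in fresh medium. *Xcl1*, a chemokine for cross-presenting dendritic cells, rose by 0.89 (SE 0.24, adjusted p = 0.0403). *Prdm1*, which encodes Blimp-1, a transcriptional repressor that takes part in tissue residency, fell by 1.27 (SE 0.32, adjusted p = 0.0322). *Runx3*, which encodes a factor known to activate *Itgae* in CD8+ T cells, was at 11.14 ± 0.30 in AML-conditioned and 11.27 ± 0.13 in fresh medium and did not pass (adjusted p = 0.606). *Cd69*, an early activation and retention marker, was at 10.47 ± 0.20 in AML-conditioned and 10.19 ± 0.38 in fresh medium and did not pass (adjusted p = 0.403). Both were named after their values were seen.

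In AML-conditioned against DC-conditioned medium 3 of the residency genes rose, 1 fell and 10 did not pass, where 2.39% of all genes passed. The median was 0.28 beside 0.01 over all genes. *Ccr8* rose by 1.97 (SE 0.33, limma adjusted p = 0.00268), *Rgs1*, a brake on chemokine receptor signalling, by 0.69 (SE 0.15, adjusted p = 0.0122) and *Litaf* by 0.37 (SE 0.09, adjusted p = 0.0361), and *Prdm1* fell by 1.46 (SE 0.32, adjusted p = 0.0153). Leaving out 1 of the 21 arrays ended the call of *Xcl1* for 9 arrays (AML replicates 3 to 5 and fresh replicates 2 to 7), that of *Prdm1* against fresh medium for 8 (AML replicates 3 to 5 and fresh replicates 2 and 4 to 7) and that of *Litaf* for 10 (AML replicates 1 to 5 and DC replicates 1 to 5). The adjusted p in these was 0.0531 to 0.111 for *Xcl1*, 0.0506 to 0.089 for *Prdm1* and 0.0623 to 0.0863 for *Litaf*. Without both AML replicates 4 and 5, *Prdm1* differed by -0.72 against fresh medium (adjusted p = 0.198) and by -0.91 against DC-conditioned medium (adjusted p = 0.0831). Of the 9 recirculation genes 8 were measured and 0 passed; *S1pr4*, a receptor for the egress lipid sphingosine-1-phosphate, differed most, by -0.47 (SE 0.17, adjusted p = 0.143) against fresh medium.

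**Figure D4:**
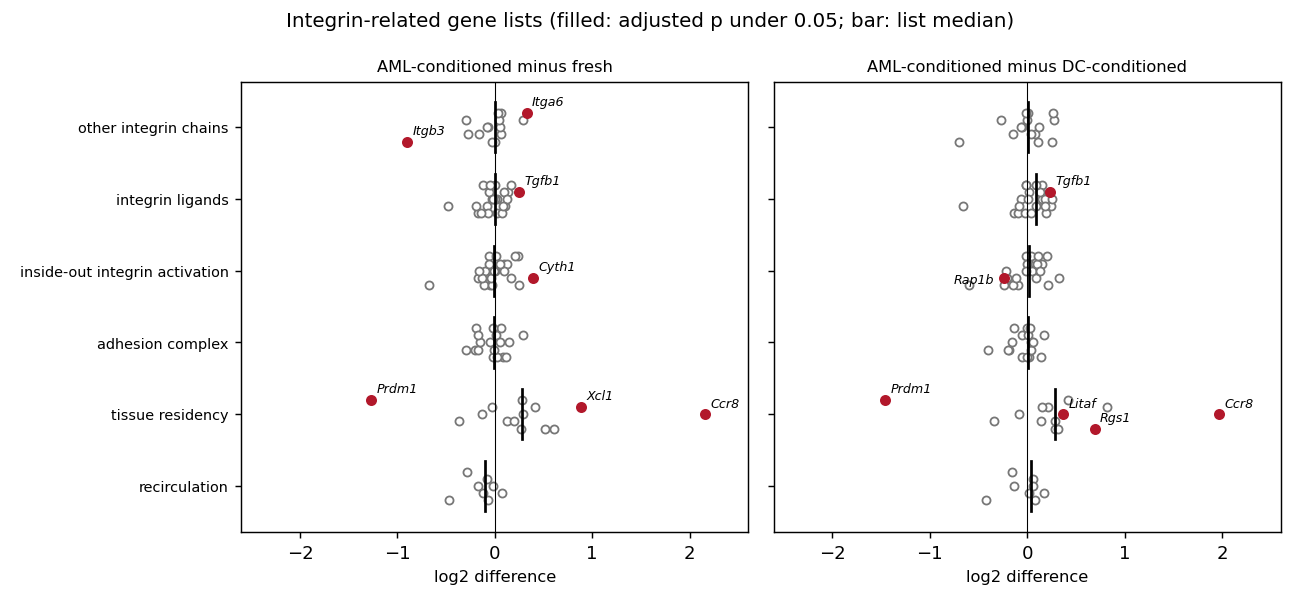
Log2 differences (x axis) of the measured genes of 6 lists (rows) in AML-conditioned minus fresh and AML-conditioned minus DC-conditioned medium, with the median of a list as a bar, genes past an adjusted p of 0.05 filled and named, and the rest open. In the tissue residency list *Ccr8* lay at 2.16 and 1.97 and *Prdm1* at -1.27 and -1.46, while 0 genes of the adhesion complex and recirculation lists passed.

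Of 24 genes of integrin ligands 23 were measured and 1 passed in each AML comparison, *Tgfb1*. Its latent product is bound by alpha V integrins, and its active product is a known inducer of CD103. Of all genes 2.77% passed against fresh and 2.39% against DC-conditioned medium. *Tgfb1* rose by 0.25 (SE 0.06, limma adjusted p = 0.0227) in AML-conditioned against fresh medium and by 0.23 (SE 0.06, adjusted p = 0.0383) against DC-conditioned medium. It was at 10.45 ± 0.10 in AML-conditioned, 10.22 ± 0.08 in DC-conditioned and 10.20 ± 0.08 in fresh medium. The call against fresh medium was lost without AML replicate 4 or 5 (adjusted p of 0.0524 and 0.0681). The call against DC-conditioned medium was lost without AML replicate 1, 2, 4 or 5 or DC replicate 1, 3, 4, 6 or 7 (adjusted p of 0.0532 to 0.111). *Cdh1*, which encodes E-cadherin, the ligand of CD103, was at 5.09 ± 0.15 in AML-conditioned and 5.26 ± 0.18 in fresh medium and did not pass (adjusted p = 0.464); it was named after its values were seen. *Lamc1*, a laminin chain, differed most among the ligands, by -0.48 (SE 0.20, adjusted p = 0.221) against fresh and by -0.66 (SE 0.20, adjusted p = 0.0824) against DC-conditioned medium, and did not pass. Against DC-conditioned medium *Lamc1* passed without AML replicate 6 (-0.76, adjusted p = 0.0292), without DC replicate 3 (-0.77, adjusted p = 0.0405), with the block for replicates 1 to 3 against 4 to 7 (adjusted p = 0.0259), with array weights (-0.70, adjusted p = 0.035) and without DC replicates 1 to 3 (-1.06, adjusted p = 0.00514).

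All 23 genes of inside-out activation, the signalling that opens an integrin for its ligand, were measured, and 1 passed in each AML comparison. The share of all genes that passed was 2.77% against fresh and 2.39% against DC-conditioned medium. *Cyth1*, which encodes cytohesin-1, a regulator bound to the tail of beta 2, rose by 0.39 (SE 0.10, limma adjusted p = 0.0324) in AML-conditioned against fresh medium. *Rap1b*, a small GTPase that activates LFA-1, fell by 0.23 (SE 0.06, adjusted p = 0.0485) in AML-conditioned against DC-conditioned medium, and this call was lost in 26 of 34 alternatives, 19 of them leaving out 1 array (all but AML replicate 6 and fresh replicate 1, adjusted p of 0.0512 to 0.128). *Rasgrp2*, an activator of Rap1 named after its values were seen, differed most in this list, by -0.67 (SE 0.20, adjusted p = 0.0631) against fresh and by -0.59 (SE 0.20, adjusted p = 0.12) against DC-conditioned medium, and did not pass. The *Cyth1* call was lost without AML replicate 3, 4 or 5 or fresh replicate 1, 4, 6 or 7 (adjusted p of 0.052 to 0.0877). Of the 20 genes of the adhesion complex, the proteins that link integrin tails to actin, 18 were measured and 0 passed. *Vcl*, which encodes vinculin, differed by -0.29 (SE 0.18, adjusted p = 0.444) and *Parvg*, which encodes the leukocyte parvin, by 0.29 (SE 0.08, adjusted p = 0.0602) in AML-conditioned against fresh medium. In DC-conditioned against fresh medium 0 genes of these lists passed with limma.

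The genes most like *Itgae* over the 21 arrays, by Pearson correlation, were *Timp2* (0.87), *Kcnip2* (0.83), *Ldlrad4* (0.82), *Ski* (0.81) and *Nhlrc3* (0.80). *Timp2* encodes an inhibitor of matrix metalloproteinases, and *Ldlrad4* and *Ski* encode negative regulators of TGF-beta signalling. Around the means of the media these correlations were 0.63, 0.72, 0.64, 0.52 and 0.41, in the same order. The lowest correlations with *Itgae* were those of *Gde1* (-0.81), *Alkbh5* (-0.81) and *Acat1* (-0.80).

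In the same ranking, the genes most like *Itga7* were *Abhd18* (0.95), *Smpd1* (0.95), *Rnf7* (0.93), *Apaf1* (0.93) and *Akr1b10* (0.93). *Smpd1* encodes acid sphingomyelinase and *Apaf1* the scaffold of the apoptosome. The lowest correlations with *Itga7* were those of *Ifit3*, an interferon-induced gene (-0.94), *Pmepa1*, an inhibitor of TGF-beta signalling (-0.94), and *Ccr8* (-0.93). Around the means of the media the correlation of *Itga7* was 0.83 with *Abhd18* and -0.83 with *Ifit3*. These correlations were taken over the same 21 arrays and include the differences between media, and they are given as a description.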

How the data were processed

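Gene expression was measured on 21 one-colour Affymetrix arrays, 7 for each of 3 media. The deposited values are log2 expression values for 22203 transcript clusters, made by the authors with oligo and RMA; the submitters' processing notes name both without a version. RMA gives no signal over background, so detection was not assessed and low values are compressed. The number of arrays limits the precision; the median standard error of a difference between media was 0.0937. Of the clusters, 19572 had 1 gene symbol, 2631 had none and 0 had several; gene identifiers (GRCm38.p6) changed 0 symbols. The cluster with the highest mean was kept for 55 symbols, which left 19505 genes. The number of columns left out was 0.

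Media were compared with limma (version 3.58.1, under R 4.3.3; lmFit and eBayes, 1 fit over 21 arrays, no covariates, two-sided), adjusted by Benjamini-Hochberg over all genes and called at an adjusted p under 0.05. Where nothing says that replicates came from separate mice, p-values measure the spread between these samples, which may be technical. The members and gene lists were chosen with earlier results of these data known. Named genes were all members, other integrin chains that were called or among the 5 with the highest mean, up to 4 called genes of a list and comparison by adjusted p or else the 2 with the largest difference, and the 5 highest and 3 lowest correlations with *Itgae* and *Itga7*; some are not printed. Samples with the same number deviated together in part. Their correlation was over 0.1 in 4 of 7 pairs of AML and DC arrays. It was over 0.1 in 3 of 7 pairs of AML and fresh and 6 of 7 of DC and fresh arrays. The same number gave the highest correlation in 4 of 7, 4 of 7 and 2 of 7 pairs, in that order. The labels do not say what a number stands for, so numbers were not taken to pair samples. A fit with a replicate block is among the alternatives. The fit was tested on simulated data. Each result was recomputed under 34 alternatives, 1 of them chosen after seeing the data.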

Additional observations from a re-analysis of the deposited data

Results flagged for a closer look

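*Itga3* in AML replicate 1 was at a log2 value of 4.494, away from the other 6 AML arrays at 4.895 to 5.192. Its gap to the nearest of them was 0.5752 of the range of the group, above the critical value of 0.568 for 7 samples. This was 1 of 72 groups of integrin values examined, and chance flags about 1 in 20 groups.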

How the results depend on the processing

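The results named here were recomputed under 34 alternatives, 1 of them (without DC replicates 1 to 3) chosen after seeing the data. Of 9243 values of single genes, 8920 kept their direction when called and their side of the threshold, 245 lost a call, 78 gained one and 0 called values changed sign; 294 values that were not called changed sign. Genes called in AML-conditioned against fresh medium numbered 541, and 111 without AML replicates 4 and 5, 1012 with a replicate block, 1026 with a block for replicates 1 to 3 against 4 to 7, 246 with the 2 media alone and 32 with replicates 4 to 7 alone. In AML-conditioned against DC-conditioned medium the same order of settings gave 92, 784, 797, 249 and 43 in place of 466. In DC-conditioned against fresh medium 0 genes passed, against 1 without AML replicates 4 and 5, 1 with either block, 2 with array weights and 5 without DC replicates 1 to 3. Leaving out 1 array gave 218 to 776 genes in AML-conditioned against fresh medium, with 249 without AML replicate 4, 218 without AML replicate 5, 299 without fresh replicate 2 and 341 without fresh replicate 4. It gave 220 to 784 in AML-conditioned against DC-conditioned medium, with 220, 242 and 784 without AML replicate 4, 5 and 6, and 308 and 289 without DC replicate 4 and 7. It gave 0 to 2 in DC-conditioned against fresh medium. Members past the threshold in AML-conditioned against DC-conditioned medium, *Itgae* and *Itga7* included, were 4, and 1 with replicates 4 to 7 alone and 2 to 4 without 1 array (2 without DC replicate 4). In AML-conditioned against fresh medium they were 3, and 3 to 4 without 1 array. They were 2 there without AML replicates 4 and 5 and 2 with replicates 4 to 7 alone. In DC-conditioned against fresh medium they were 0. The replicate block changed no call of a member; in AML-conditioned against DC-conditioned medium it brought *Itgb3* (-0.70, adjusted p = 0.0287), *Lamc1* (-0.66, adjusted p = 0.0166), *Cyth1* (0.33, adjusted p = 0.0492) *Cd4* (0.54, adjusted p = 0.0122), *Kcnip2* (0.36, adjusted p = 0.0288) and *Alkbh5* (-0.37, adjusted p = 0.0136) past the threshold and ended the call of *Litaf* (adjusted p = 0.0513), and against fresh medium it brought *Parvg* (0.29, adjusted p = 0.0276), *Ikzf4* (0.44, adjusted p = 0.0437) and *Rgs1* (0.52, adjusted p = 0.0201) past it. The cause of these shifts was not tested, except that settings with fewer arrays have fewer samples. Scaling moved the median of all genes by at most 0.0353.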
